A study of Mus musculus with 6 samples.

Results

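The 47 genes described here act in DNA replication and mitosis. They were picked by gene symbol from the 54532 genes of the deposited table, and each symbol matched 1 row. By textbook role, 28 belong to G1 and S phase and 19 to G2 and M phase. The study gave P19 mouse embryonal carcinoma cells, which form neural cells under retinoic acid, either Baf45d siRNA (3 replicates) or negative control (NC) siRNA (3 replicates), both by Lipofectamine 2000. All 6 samples were then kept in all-trans retinoic acid for 5 days before total RNA was sequenced. Dpf2 is the mouse gene of BAF45D, which belongs to the chromatin-remodelling complex called BAF. The design sets siRNA against BAF45D beside control siRNA in cells on the way to a neural fate. The treatment text also names a gapdh siRNA, which labels no library. The labels call the replicates biological without naming separate cultures or batches, so p-values measure only the spread between these samples, which may be technical.

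Cells enter the division cycle when D-type cyclins with Cdk4 and Cdk6, then E-type cyclins with Cdk2, phosphorylate the retinoblastoma protein and its relatives and so free E2F factors to switch on replication genes. Origins are licensed by loading of the Mcm2 to Mcm7 helicase, and DNA is copied in S phase. Chromosomes are sorted in mitosis by Cdk1 with A-type and B-type cyclins, Polo and Aurora kinases, the spindle checkpoint and motor proteins. Neural progenitors divide, while the neurons they form leave the cycle, and many of these transcripts are abundant mainly in dividing cells. In bulk RNA, fewer dividing cells and less RNA per dividing cell cannot be told apart.

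Libraries held from 17127876 to 21224822 counts. The transcript targeted by the siRNA checks the labels poorly, since Dpf2 stood at 148, 141 and 147 CPM in the Baf45d libraries and 156, 154 and 158 CPM in the NC libraries (CPM being counts divided by TMM-adjusted library sizes, on a common scale), a log2 fold change of -0.098 (SE 0.069) with an edgeR adjusted p of 0.996. The Baf45d libraries all lay below the NC libraries, by a mean of 6.59%. Groups are named below as the labels name them. Neural progenitor markers summed to 1675 to 1814 CPM in the Baf45d libraries and 1546 to 1771 CPM in the NC libraries, with Fabp7 and Hes5 under 2 CPM in every library. By fold change 7 of these 10 markers were positive (median log2 fold change 0.20), against 51.9% of all genes tested, and their lowest edgeR adjusted p was 0.996. Pluripotency markers summed to 11.5 to 14.7 CPM in the Baf45d libraries and 10.8 to 14.2 CPM in the NC libraries, and Zfp42 and Dppa5a had 0 counts in all 6.

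None of the 47 genes passed the test for a difference between Baf45d and NC siRNA, in either phase. In the edgeR quasi-likelihood test 0 of 47 passed an adjusted p of 0.05, where 0 of all 16078 genes tested (0%) did. DESeq2 and limma-voom also called 0 members, where over all genes they called 0 of 29811 and 0 of 16078. At an unadjusted p under 0.05 there were 0 of 47 members, against 459 of 16078 genes (2.85%). All 47 passed the filter on low counts, the lowest single value being 258 counts. Their log2 fold changes ran from -0.11 to 0.24, with a median SE of 0.093, and their adjusted p from 0.996 to 0.999. The groups did not overlap for 1 member, Mcm7, which lay above NC. Over all genes 3.74% lay wholly above and 4.3% wholly below, 8.04% together. In alternatives that called genes or moved the unadjusted counts, no member was called either. With the replicate number as a block, 0 of 47 members were called, against 0.00622% of all genes, and 3 (Top2a, Bub1 and Rbl1) had an unadjusted edgeR p under 0.05, against 7.75%. Without the filter on low counts 0 members were called, against 0.0335%, and Top2a and Mki67 had an unadjusted p under 0.05, against 3.85%. Without Baf45d replicate 3 the members called were again 0, against 0.269%, and Rb1 had an unadjusted p under 0.05, against 13.3%. Without Baf45d replicate 1 there were 4 such members (Top2a, Rrm1, Bub1 and Rbl1), against 5.54%, and 0 called, against 0%.

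Summed over the 47 genes, expression was 7797, 8745 and 8621 CPM in the Baf45d libraries and 7983, 8161 and 7952 CPM in the NC libraries. The Baf45d libraries thus held both the lowest and the highest sums. Members made up from 0.783% to 0.860% of a library's counts. The G1 and S genes had a median log2 fold change of 0.0039, 15 of 28 being positive, and the G2 and M genes 0.065, with 14 of 19 positive. Over all genes tested the median was 0.0068 and 51.9% were positive. The sign of most G2 and M genes was positive without Baf45d replicate 3 as well (14 of 19), whereas for G1 and S genes 7 of 28 were then positive. Without Baf45d replicate 2 the G2 and M genes had 10 of 19 positive and a median of 0.00027.

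**Figure D1:**
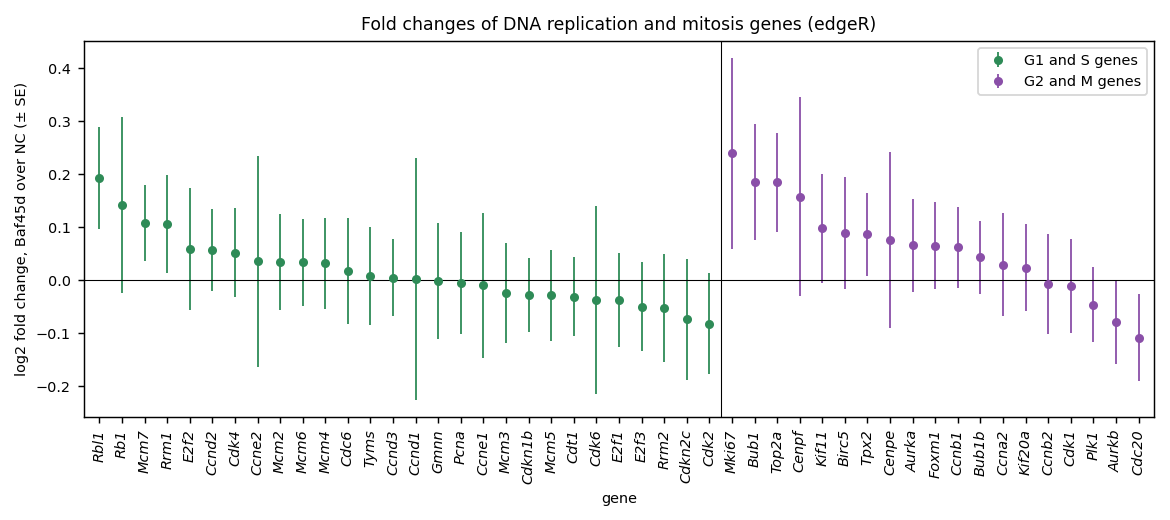
Log2 fold change of Baf45d over NC siRNA (y axis) for each of the 47 genes (x axis), with bars of 1 SE from the edgeR fit, G1 and S genes on the left and G2 and M genes on the right. Values lie between -0.11 and 0.24, and no gene passed an adjusted p of 0.05.

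Most of these transcripts were well expressed. Levels between genes are compared as FPKM, the authors' values scaled for gene length and library size, averaged over the 6 libraries. Cdk4 led at 187.6 FPKM, followed by the decatenating enzyme Top2a at 111.2 FPKM and the ribonucleotide reductase subunit Rrm2 at 81.1 FPKM. At the low end stood Cdk6 at 2.81 FPKM, with Ccnd1, Rb1, E2f2, Ccne2 and Cdkn2c each under 8 FPKM in both group means. G2 and M genes ranged from 13.6 FPKM for Cenpf to 111.2 FPKM, with a median of 40.6 FPKM. For G1 and S genes the median was 22.02 FPKM. Of the paired G1 kinases, Cdk4 stood at 177, 189 and 207 FPKM in the Baf45d libraries and 176, 182 and 194 FPKM in the NC libraries, while Cdk6 averaged 2.78 ± 0.585 FPKM with Baf45d siRNA and 2.85 ± 0.617 FPKM with NC siRNA (SD, n = 3 each). Among the D-type cyclins Ccnd2 was the most abundant per length, at 30.3 ± 0.398 FPKM with Baf45d siRNA and 29.1 ± 2.13 FPKM with NC siRNA, ahead of Ccnd3 at 18.1 ± 0.615 FPKM with Baf45d siRNA and 18.1 ± 0.694 FPKM with NC siRNA and Ccnd1 at 4.31 ± 1.33 FPKM with Baf45d siRNA and 4.30 ± 1.02 FPKM with NC siRNA. That order held in every library, with gaps larger than the spread between replicates. The exons of 13 members overlap exons of a gene on the opposite strand in GENCODE M21 (Ccnd1, Ccnd2, Ccnd3, Ccne2, Cdk2, Cdk4, Cdk6, Rb1, Mcm7, Ccna2, Plk1, Cdc20 and Kif20a). The use of strand in counting is not given in the sources used here, so these counts may hold reads of the partner gene. For Ccne2 and Rb1 the partner genes had more counts than the member (2499 counts for Ccne2 against 6762 for Ints8, and 3071 for Rb1 against 5201 for Lpar6 and Rcbtb2 together, summed over the 6 libraries). Mcm7, Foxm1 and Top2a also share exon bases with a gene on their own strand. The overlap was longest for Kif20a, 977 bases with Cdc23.

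**Figure D2:**
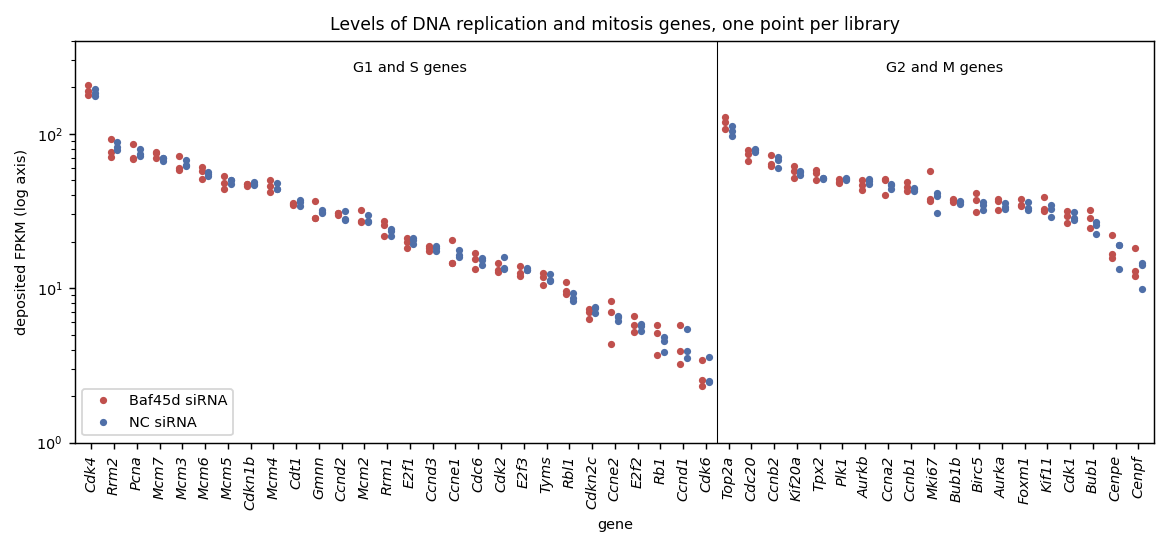
Deposited FPKM (y axis, log scale) of the 47 genes (x axis) in each of the 6 libraries, Baf45d siRNA in red and NC siRNA in blue, ordered by mean within each phase. The 2 colours overlap in height for every gene but Mcm7, and single values run from 2.34 FPKM for Cdk6 in Baf45d replicate 1 to 206.8 FPKM for Cdk4 in Baf45d replicate 3.

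Promoter sequences are given because motifs are known for S phase and mitotic genes, the phases by which the members are grouped. RefSeq promoter windows of 300 bases (250 before and 50 after the transcript start, GRCm38.p6) were matched for 36 members, 41 windows in all, since 5 G1 and S genes have 2 windows each. Not matched were Aurkb, Ccna2, Ccnd1, Ccnd2, Ccne2, Foxm1, Gmnn, Kif20a, Mcm4, Rb1 and Tpx2. Searched on both strands were CCAAT (the box bound by NF-Y), TTTGAA (the cell cycle genes homology region, CHR, known from mitotic promoters) and the E2F forms TTTCGCGC, TTTCCCGC and TTTGGCGC. Matches can overlap, as 2 of the 3 E2F matches of Mcm6 do, and an E2F form and a CCAAT of Mcm7. CCAAT occurred in 13 of 14 G2 and M windows and 16 of 27 G1 and S windows, against 37.4% of all 32851 promoter windows. TTTGAA occurred in 10 of 14 G2 and M windows, each of which also held CCAAT, and in 3 of 27 G1 and S windows, against 17.9% of all windows. An E2F form occurred in 1 of 14 G2 and M windows, that of Cdk1, and in 10 of 27 G1 and S windows, 6 of them among 9 windows of licensing and fork genes, against 1.84% of all windows. A match describes letters, not a bound site, and the difference between phases was not tested.

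The 250 bases before the start are shown for 6 members whose levels are described below, 3 per phase, with matches in capitals. They were chosen with their values and matches known. The first 3 carry E2F forms, with CCAAT in Mcm6 and Mcm7, and the last 3 carry TTTGAA and CCAAT, on either strand. For Mcm7, which has a second window with 1 CCAAT and no E2F form, the window with 2 E2F forms is shown. One of these 2, with 1 of its 3 CCAAT matches, falls after the start, as does 1 of the 2 TTTGAA matches of Ccnb2.
Rbl1, chr2:157204535-157204784, minus strand: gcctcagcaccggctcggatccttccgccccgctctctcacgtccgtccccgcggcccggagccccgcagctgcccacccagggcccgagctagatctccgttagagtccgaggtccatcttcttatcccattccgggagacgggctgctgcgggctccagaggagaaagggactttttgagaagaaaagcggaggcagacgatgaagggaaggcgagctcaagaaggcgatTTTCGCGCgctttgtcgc
Mcm6, chr1:128359706-128359955, minus strand: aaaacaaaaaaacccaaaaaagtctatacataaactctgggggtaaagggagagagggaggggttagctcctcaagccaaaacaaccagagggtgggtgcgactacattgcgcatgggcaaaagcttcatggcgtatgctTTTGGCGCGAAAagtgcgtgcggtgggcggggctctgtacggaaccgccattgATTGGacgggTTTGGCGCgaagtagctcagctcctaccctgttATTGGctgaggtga
Mcm7, chr5:138171884-138172133, minus strand: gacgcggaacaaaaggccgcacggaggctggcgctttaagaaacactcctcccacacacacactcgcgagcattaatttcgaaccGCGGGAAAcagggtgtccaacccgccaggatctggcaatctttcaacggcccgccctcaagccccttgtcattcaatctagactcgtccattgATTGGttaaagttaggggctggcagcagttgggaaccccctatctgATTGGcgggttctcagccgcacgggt
Top2a, chr11:99024190-99024439, minus strand: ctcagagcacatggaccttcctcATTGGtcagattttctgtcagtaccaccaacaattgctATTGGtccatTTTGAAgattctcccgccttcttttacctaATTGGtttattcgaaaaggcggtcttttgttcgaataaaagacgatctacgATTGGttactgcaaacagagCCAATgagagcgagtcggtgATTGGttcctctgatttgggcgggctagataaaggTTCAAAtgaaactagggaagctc
Mki67, chr7:135716380-135716629, minus strand: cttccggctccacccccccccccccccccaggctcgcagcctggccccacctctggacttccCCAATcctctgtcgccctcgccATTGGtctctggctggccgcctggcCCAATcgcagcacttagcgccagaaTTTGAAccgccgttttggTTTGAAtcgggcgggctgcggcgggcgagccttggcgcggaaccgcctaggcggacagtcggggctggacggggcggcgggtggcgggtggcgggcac
Ccnb2, chr9:70421555-70421804, minus strand: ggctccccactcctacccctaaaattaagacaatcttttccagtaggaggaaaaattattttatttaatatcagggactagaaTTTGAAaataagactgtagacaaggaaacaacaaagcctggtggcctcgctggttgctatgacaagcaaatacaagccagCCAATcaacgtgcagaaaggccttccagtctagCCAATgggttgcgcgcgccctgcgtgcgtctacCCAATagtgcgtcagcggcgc

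The G1 regulators differed between libraries more than between the groups' means. Of the 10 cyclins, kinases and inhibitors of G1, 5 had a positive log2 fold change, and the median was -0.0034. Cdk4 stood at 579, 618 and 673 CPM in the Baf45d libraries and 575, 595 and 634 CPM in the NC libraries. The ranges overlapped, and the log2 fold change was 0.052 (SE 0.084). Cdk2, the partner of E-type cyclins and the member of this group with the smallest p, stood at 81.7, 79.8 and 90.3 CPM in the Baf45d libraries and 83.4, 84.2 and 99.1 CPM in the NC libraries, with a log2 fold change of -0.082 (SE 0.095). NC replicate 3 was its highest library. Ccnd1 stood at 18.4, 15.3 and 27.3 CPM in the Baf45d libraries and 16.7, 18.5 and 25.9 CPM in the NC libraries. Both libraries numbered 3 were high for Ccnd1, whichever siRNA they had received. Cdk6 was likewise highest in the libraries numbered 3, with 33.0, 35.8 and 48.2 CPM in the Baf45d libraries and 34.8, 35.3 and 50.1 CPM in the NC libraries. Ccne2, an E-type cyclin, had its lowest value in Baf45d replicate 1, at 15.2, 24.8 and 29.0 CPM in the Baf45d libraries and 21.4, 22.8 and 23.1 CPM in the NC libraries, and the highest library held 1.91 times the lowest. The inhibitor Cdkn1b (p27) was among the steadiest members, at 216, 217 and 208 CPM in the Baf45d libraries and 214, 224 and 215 CPM in the NC libraries, a coefficient of variation of 2.45%.

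For the 5 E2F and pocket protein genes the median log2 fold change was 0.059. Rbl1 encodes p107, a pocket protein that binds repressor E2F factors, and had the smallest p of all 47 genes (unadjusted p = 0.0737 in the edgeR fit over 16078 genes, n = 3 each). It stood at 55.5, 66.3 and 57.9 CPM in the Baf45d libraries and 49.6, 55.7 and 51.9 CPM in the NC libraries, with a log2 fold change of 0.19 (SE 0.096). Each Baf45d library lay above its same-numbered NC library, but Baf45d replicate 1 lay below NC replicate 2. Being higher in 3 of 3 same-numbered pairs was true of 9 of 47 members and 13.8% of all genes tested. Rb1, the retinoblastoma gene, stood at 31.0, 35.1 and 22.1 CPM in the Baf45d libraries and 27.4, 29.3 and 23.2 CPM in the NC libraries, and its lowest values were those of the libraries numbered 3 in both groups. Its log2 fold change was 0.14 (SE 0.17), and it ran from 0.00066 without Baf45d replicate 2 to 0.31 without Baf45d replicate 3. E2f1 was the most abundant per length of the members E2f1, E2f2 and E2f3. It stood at 67.5, 57.6 and 63.0 CPM in the Baf45d libraries and 65.1, 61.2 and 66.8 CPM in the NC libraries. Its log2 fold change was -0.037 (SE 0.089).

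Licensing and fork genes had a median log2 fold change of 0.0079 with 5 of 10 positive. Mcm7, a subunit of the replicative helicase, stood at 312, 338 and 334 CPM in the Baf45d libraries and 309, 295 and 309 CPM in the NC libraries, with a log2 fold change of 0.11 (SE 0.072) and an unadjusted edgeR p of 0.166 over 16078 genes (n = 3 each). It was the member whose groups did not overlap, and the gap between the lowest Baf45d and the highest NC library was smaller than the spread within either group. The other helicase subunits measured, Mcm2 to Mcm6, overlapped between groups. Mcm6, for example, stood at 241, 284 and 267 CPM in the Baf45d libraries and 249, 259 and 266 CPM in the NC libraries. Pcna, the sliding clamp of the fork, stood at 166, 169 and 206 CPM in the Baf45d libraries and 178, 174 and 191 CPM in the NC libraries, with its highest value in Baf45d replicate 3 and a log2 fold change of -0.0046 (SE 0.096). The licensing factors Cdc6 and Cdt1 and the Cdt1 inhibitor Gmnn had group means of 79.7 ± 9.26, 110.4 ± 2.26 and 46.1 ± 6.66 CPM with Baf45d siRNA and 78.7 ± 4.70, 113 ± 5.34 and 46.2 ± 0.823 CPM with NC siRNA (SD, n = 3 each). Of the genes for deoxynucleotide synthesis, Rrm1 (large subunit of ribonucleotide reductase) stood at 242, 299 and 284 CPM in the Baf45d libraries and 240.3, 260.2 and 267 CPM in the NC libraries, with a log2 fold change of 0.11 (SE 0.093), and Rrm2 (small subunit) at 211, 198 and 255 CPM in the Baf45d libraries and 217, 227 and 246 CPM in the NC libraries, with a log2 fold change of -0.053 (SE 0.10). Thymidylate synthase, Tyms, averaged 71.2 ± 6.61 CPM with Baf45d siRNA and 70.8 ± 3.79 CPM with NC siRNA.

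Among the mitotic cyclins, Cdk1 and their activator Foxm1, 3 of 5 log2 fold changes were positive and the median was 0.029. Ccnb1, the cyclin of mitotic entry, stood at 182, 193 and 207 CPM in the Baf45d libraries and 182, 186 and 189 CPM in the NC libraries, with a log2 fold change of 0.062 (SE 0.076). Its sister gene Ccnb2 stood at 95.9, 111 and 97.7 CPM in the Baf45d libraries and 105, 109 and 92.5 CPM in the NC libraries, with a log2 fold change of -0.0072 (SE 0.094). Cdk1 averaged 143 ± 12.5 CPM with Baf45d siRNA and 145 ± 9.10 CPM with NC siRNA, and Ccna2 192 ± 24.2 CPM with Baf45d siRNA and 188 ± 6.93 CPM with NC siRNA (SD, n = 3 each).

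Of the 7 kinase, checkpoint and passenger genes, 4 had a positive log2 fold change. Bub1, a checkpoint kinase of the kinetochore, stood at 108, 141 and 124 CPM in the Baf45d libraries and 112, 117 and 98.7 CPM in the NC libraries, highest in Baf45d replicate 2 and lowest in NC replicate 3. Its log2 fold change was 0.19 (SE 0.11), or 0.087 without Baf45d replicate 2 and 0.28 without Baf45d replicate 1. Cdc20, the activator of the anaphase-promoting complex, had the opposite sign, at 147, 125 and 137 CPM in the Baf45d libraries and 150.4, 148 and 143 CPM in the NC libraries. Cdc20 was higher in 0 of 3 same-numbered pairs, which was true of 2 of 47 members and 14.8% of all genes tested. Its log2 fold change was -0.11 (SE 0.082), and the ranges overlapped. Polo-like kinase Plk1 and the checkpoint gene Bub1b were the steadiest members of the mitotic group: Plk1 stood at 107, 108 and 111 CPM in the Baf45d libraries and 112, 114 and 111 CPM in the NC libraries. Bub1b had a coefficient of variation of 2.32% over the 6 libraries, the lowest of the 47.

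All 5 spindle and kinetochore genes and both chromosome genes had positive log2 fold changes, with medians of 0.087 and 0.21, and none passed the test. Top2a, which untangles sister chromatids, stood at 973, 1165 and 1076 CPM in the Baf45d libraries and 946, 1011 and 871 CPM in the NC libraries, with a log2 fold change of 0.18 (SE 0.093) and an unadjusted edgeR p of 0.0756 over 16078 genes (n = 3 each). Each Baf45d library lay above its same-numbered NC library, as for 13.8% of all genes tested, though Baf45d replicate 1 lay below NC replicate 2. Mki67, the proliferation marker that coats mitotic chromosomes, stood at 372, 581 and 380.4 CPM in the Baf45d libraries and 420.0, 401 and 308 CPM in the NC libraries, with a log2 fold change of 0.24 (SE 0.18), the highest of the 47. Baf45d replicate 2 lay above all other libraries and NC replicate 3 below them, and without Baf45d replicate 2 the Mki67 log2 fold change was 0.0034. Cenpf, a kinetochore protein, had the same 2 extremes, at 186, 284 and 199.7 CPM in the Baf45d libraries and 227, 219 and 153 CPM in the NC libraries, and so had the kinetochore motor Cenpe, at 135, 192 and 143 CPM in the Baf45d libraries and 166, 165 and 115 CPM in the NC libraries. The spindle assembly factor Tpx2 varied less, at 235, 274 and 259 CPM in the Baf45d libraries and 242, 242 and 239 CPM in the NC libraries, with a log2 fold change of 0.087 (SE 0.078), and the cytokinesis motor Kif20a stood at 198, 235 and 219.5 CPM in the Baf45d libraries and 205, 220.1 and 217 CPM in the NC libraries, with a log2 fold change of 0.024 (SE 0.083).

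The libraries differed in which phase stood high. The mean deviation of the G1 and S genes from their own 6-library means (log2 CPM, prior count 2) was -0.069, -0.026 and 0.11 in Baf45d replicates 1 to 3 and -0.052, -0.016 and 0.055 in NC replicates 1 to 3. In both groups the library numbered 3 was the highest. There, 23 of 28 G1 and S genes lay above their own mean in the Baf45d library and 21 of 28 in the NC library, against 8042 and 8190 of 16078 genes tested. The 5 E2F and pocket protein genes among them had negative mean deviations, -0.068 in Baf45d replicate 3 and -0.069 in NC replicate 3. In each of these 2 libraries 2 of the 5 lay above their own mean. Rb1 was the lowest of the 5 in both, at -0.32 and -0.25. For the G2 and M genes the deviations were -0.086, 0.14 and 0.037 in Baf45d replicates 1 to 3 and -0.0037, 0.026 and -0.11 in NC replicates 1 to 3. Baf45d replicate 2 was the highest library for 11 of the 19 genes, against 3753 of 16078 genes tested. NC replicate 3 was the lowest for 8 of the 19, against 2422 of 16078. Baf45d replicate 1 was the lowest for 7 of the 19, against 2982 of 16078. Of the 19 genes, 2 lay above their own mean in Baf45d replicate 1 and 6 in NC replicate 3. Over all 16078 genes these counts were 8117 and 8190. As group means the G1 and S deviation was 0.0045 ± 0.093 with Baf45d siRNA and -0.0045 ± 0.055 with NC siRNA, and the G2 and M deviation 0.029 ± 0.11 with Baf45d siRNA and -0.029 ± 0.071 with NC siRNA (SD, n = 3 each), so the difference between groups was smaller than the spread within either group. Neuron markers deviated by 0.30, 0.20 and -0.27 in Baf45d replicates 1 to 3 and by -0.021, -0.16 and -0.052 in NC replicates 1 to 3, and 10 of 12 were positive by fold change. Their summed level ran from 877 to 1364 CPM in the Baf45d libraries and from 957 to 1049 CPM in the NC libraries. Mesenchyme markers summed to 1796 to 1912 CPM in the Baf45d libraries and 1887 to 2280 CPM in the NC libraries, with 9 of 10 negative, and all of both lists were detected. The part of either in the levels above was not tested.

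**Figure D3:**
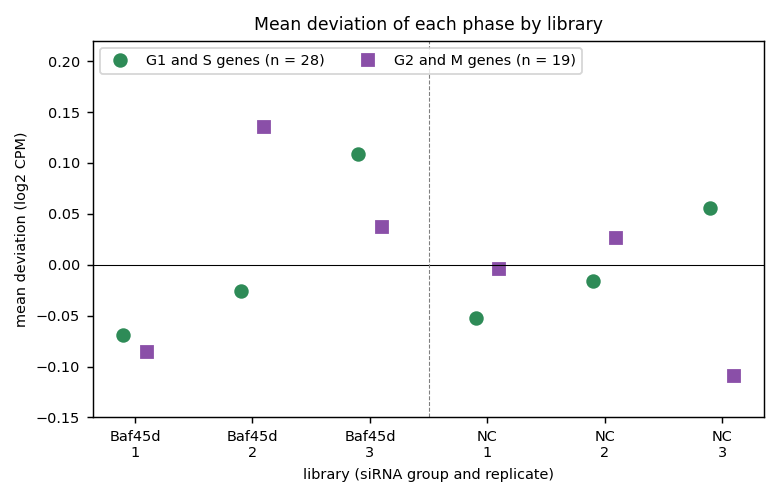
Mean deviation of the 28 G1 and S genes (circles) and the 19 G2 and M genes (squares) from each gene's own mean (y axis, log2 CPM) in the 6 libraries (x axis). The libraries numbered 3 are the highest of their group for G1 and S genes, and Baf45d replicate 2 stands highest and NC replicate 3 lowest for G2 and M genes.

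**Figure D4:**
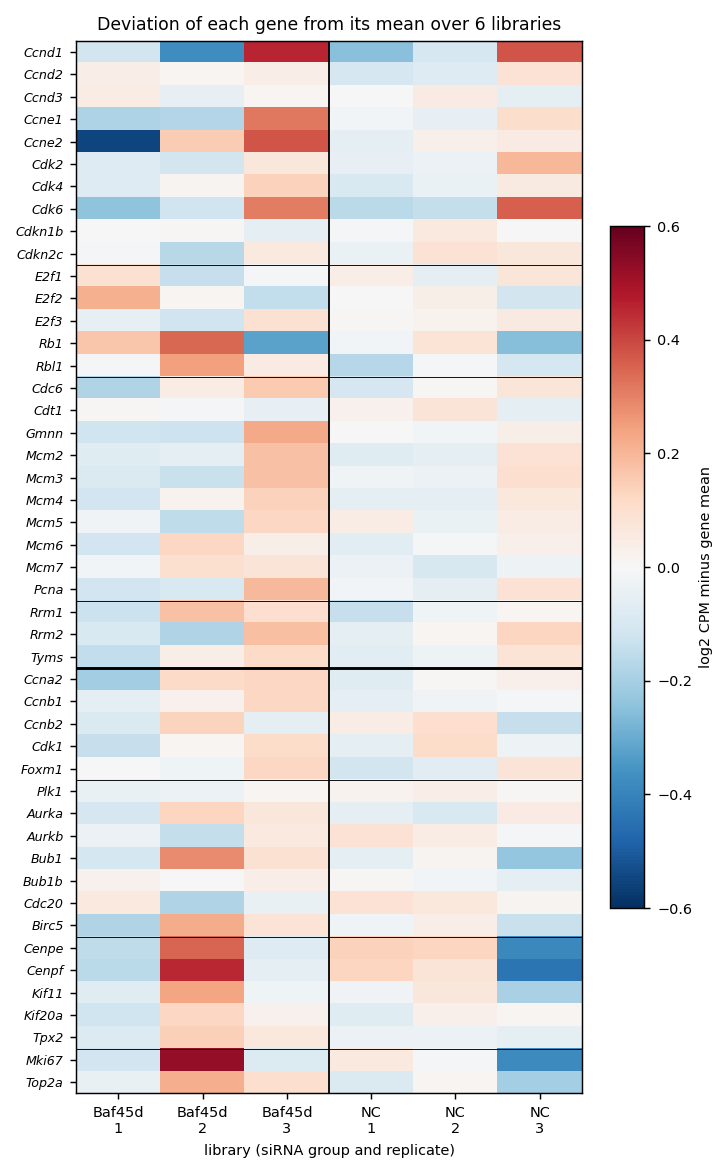
Deviation of each gene (rows, grouped by role, with the heavy line between G1 and S genes above and G2 and M genes below) from its mean in each library (columns), in log2 CPM. Ccnd1 and Cdk6 are high in both libraries numbered 3, and Mki67, Cenpf and Cenpe are high in Baf45d replicate 2 and low in NC replicate 3.

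The 3 mitotic genes with the widest spread between libraries were among the longest of the 19. Gene length in the deposited table was 10061 bases for Mki67, 15433 for Cenpf and 8620 for Cenpe, against a median of 4426 bases over the 47. Across the 19 G2 and M genes, the mean deviation was highest in Baf45d replicate 2 and lowest in NC replicate 3. In these libraries length and the deviation had a Spearman correlation of 0.58 and -0.56, respectively. In the other libraries it was -0.23 and 0.012 in Baf45d replicates 1 and 3, and -0.081 and -0.014 in NC replicates 1 and 2. For Baf45d replicate 2 and NC replicate 3 the values were 0.40 and -0.034 over the 28 G1 and S genes and 0.10 and -0.071 over all 16078 genes tested. Among G1 and S genes the value farthest from 0 was -0.44, in NC replicate 1. Length and log2 fold change had a Spearman correlation of 0.69 across the 19 G2 and M genes, 0.33 across the 28 G1 and S genes and 0.15 across all genes tested. These are descriptions across genes of the same 6 libraries, which share depth and are not independent. Of the 8 members of 8000 bases or more, a limit set after the lengths and values were seen, 7 were positive in log2 fold change (median 0.091), against 22 of 39 shorter members (median 0.018). Cdk6 at 13989 bases and Ccnd2 at 9409 bases did not share the pattern of Mki67, Cenpf and Cenpe. The part of length in the difference was not tested.

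**Figure D5:**
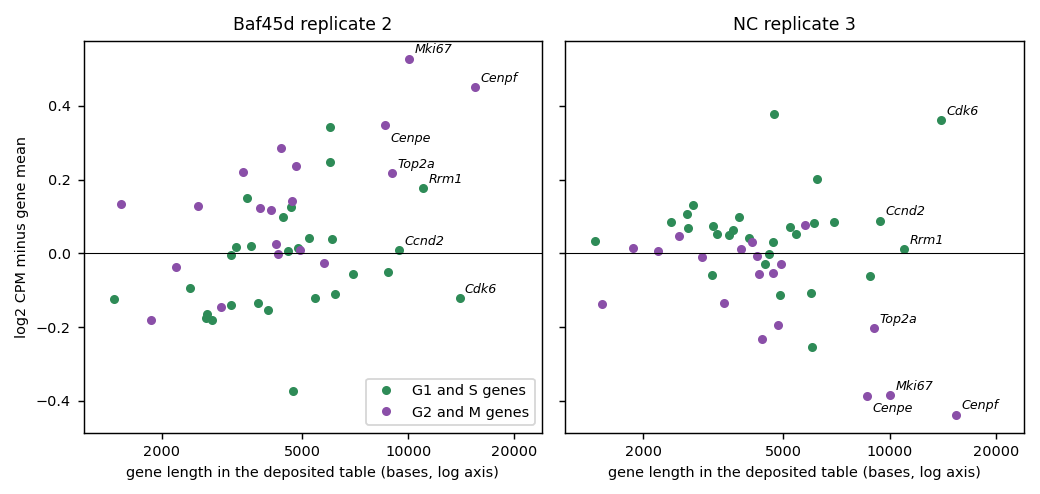
Gene length in bases (x axis, log scale) and deviation from the gene's own mean in log2 CPM (y axis) for the 47 genes, in Baf45d replicate 2 (left) and NC replicate 3 (right). Long G2 and M genes such as Mki67 and Cenpf lie high in the first and low in the second, while Cdk6 does not follow them.

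Other genes of the same processes were read from lists of 50 replication, 56 mitosis and 33 regulator genes, all of them tested. None passed an adjusted p of 0.05. Of the other replication genes 33 of 50 were positive (median log2 fold change 0.057), and 0 had an unadjusted edgeR p under 0.05, against 2.85% of all genes. Groups did not overlap for 3 of the 50, 2 above and 1 below NC, against 8.04% of all genes in either direction. The 2 with the smallest p went opposite ways. Ung, which removes uracil from DNA, stood at 26.5, 22.9 and 26.2 CPM in the Baf45d libraries and 27.8, 29.5 and 29.9 CPM in the NC libraries (log2 fold change -0.20 (SE 0.10)), and Pole, the catalytic subunit of DNA polymerase epsilon, at 97.3, 107 and 105 CPM in the Baf45d libraries and 92.6, 95.1 and 91.6 CPM in the NC libraries (log2 fold change 0.14 (SE 0.076)). Of the other mitosis genes 46 of 56 were positive (median 0.091), and 1 had an unadjusted p under 0.05. That gene, the spindle protein Nusap1, stood at 97.7, 131 and 106 CPM in the Baf45d libraries and 88.6, 97.6 and 83.8 CPM in the NC libraries, with a log2 fold change of 0.31 (SE 0.11), or 0.18 without Baf45d replicate 2. That library was the highest for 36 of the 56 genes. The kinase Melk stood at 67.1, 79.1 and 73.2 CPM in the Baf45d libraries and 65.1, 64.5 and 64.6 CPM in the NC libraries, with a log2 fold change of 0.18 (SE 0.086). For both, the groups did not overlap, which was true of 4 of the 56 genes, against 8.04% of all genes in either direction. All 4 lay above NC, as did 3.74% of all genes. Of the other regulators 15 of 33 were positive (median -0.0056), and 2 had an unadjusted p under 0.05. Groups did not overlap for 3 of the 33, against 8.04% of all genes in either direction. All 3 lay below NC, as did 4.3% of all genes. Gas1, a membrane protein tied to growth arrest and Hedgehog signalling, stood at 381, 442 and 465 CPM in the Baf45d libraries and 522, 534 and 503 CPM in the NC libraries, with a log2 fold change of -0.28 (SE 0.088), and the Baf45d libraries all lay below the NC libraries. The inhibitor Cdkn2d (p19) stood at 33.6, 25.2 and 27.8 CPM in the Baf45d libraries and 35.9, 35.0 and 33.7 CPM in the NC libraries, with a log2 fold change of -0.27 (SE 0.12), again with no overlap. All 6 of these genes had an edgeR adjusted p of 0.996.

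The authors' deposited table held the same comparison with 0 of 47 members at a p-value under 0.05, against 394 of 27064 genes with a p-value. Of these 27064 genes, 0 had an adjusted p under 0.05 in that table, the lowest being 0.0652. In the authors' deposited tables of terms, no member was listed for any of 217 KEGG terms or 599 Reactome terms. Nor was any member in the 455 protein pairs. The rule by which genes were listed is not given in the sources used here. If it was a p-value under 0.05, no member could be listed, and their absence adds nothing to the count above. The KEGG term Cell cycle held 3 of the 133 listed genes (Cdkn2a, Gadd45b and Smc1a), with an adjusted p of 0.917 in the authors' deposited table. The Reactome terms Mitotic Anaphase, Assembly of the pre-replicative complex and G2/M Transition held 8, 4 and 7 of 151 listed genes, none of them a member. Their p-values in the authors' deposited table were 0.0235, 0.0317 and 0.0483, and their adjusted p 0.177, 0.177 and 0.188.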

How the data were processed

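The authors deposited 1 table of genes with a raw count and an FPKM value per library, per the file headers. The FPKM values equal counts divided by gene length and a library factor, to within 1%, for the 13697 genes with sufficient counts in all 6 libraries. The same table holds the authors' signal (mean normalized count per group), log2 fold changes and p-values. Further deposited tables give term p-values with counts of genes up and down, and a pair score. The submitters' processing notes name mm9 and DESeq2 1.16.1. No aligner, counter or strand setting is given in the sources used here. Of the 54409 deposited genes with an identifier in GENCODE M21, 98.3% have the same start and end there, so coordinates are read as GRCm38.

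Counts were tested with edgeR 4.0.16 in R 4.3.3 (filterByExpr, TMM, robust quasi-likelihood F test, two-sided, group alone), with Benjamini-Hochberg adjustment over all 16078 genes. Alternatives were other scalings, no filter, DESeq2 1.42.0, limma 3.58.1 (voom, and log2 FPKM with pseudocounts of 1 and 0.1), a replicate block and libraries left out. The procedure was also run on simulated counts, with no link between same-numbered libraries and with planted changes larger than those fitted for the members. It therefore does not tell how often changes of the members' size would be found. Counts of same-numbered libraries deviated together (r = 0.17, 0.13 and 0.35 for numbers 1 to 3 over 16078 genes, other pairs -0.24 to 0.12). For number 2 the value was close to that of Baf45d replicate 2 with NC replicate 1 (0.12). The labels do not say that the numbers pair samples, so the main test used group alone, and the replicate block was an alternative. Replicates of a group differed by more than sampling noise, so all were kept. Chi-square per degree of freedom was 3.32 to 8.95 between NC libraries and 15.7 to 22.7 between Baf45d libraries, so the Baf45d libraries differed more. Members, lists and tests were chosen with earlier results of these data known. Values per library are given for the member of each role with the smallest p and the one with the highest FPKM, and for the 2 genes with the smallest p of each other cell cycle list. Values of the other genes named were chosen after their values were seen. SD is over 3 libraries.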

Additional observations from a re-analysis of the deposited data

How the results depend on the processing

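No member passed an adjusted p of 0.05 in any of 17 alternative settings. The count of genes called over the whole table, 0 as reported, was 10 without a filter on low counts, 1 with the replicate block, 20 with both libraries numbered 3 left out, and from 0 to 44 when single libraries were left out, with 44 without Baf45d replicate 3. The block changed no member's call. The number of G1 and S genes with a positive log2 fold change ran from 7 (without Baf45d replicate 3) to 21 when 1 library was left out. The G1 and S median then ran from -0.051 to 0.064 and the G2 and M median from 0.00027 to 0.13. Scaling by library totals alone left 12 of 28 G1 and S genes and 14 of 19 G2 and M genes positive. Over all genes tested 47.5% were then positive, against 51.9% in the main test. Signs of members near 0 turned. Ranges are given only for genes whose log2 fold change is stated above. Leaving out 1 library, log2 fold changes ran from -0.074 to 0.044 for Ccnb2, -0.14 to 0.0031 for Cdk2, -0.0065 to 0.10 for Cdk4, -0.093 to 0.025 for E2f1, -0.030 to 0.087 for Kif20a, -0.11 to 0.052 for Pcna and -0.17 to 0.025 for Rrm2. Values that kept their sign but moved by over 1.5 times ran from 0.087 to 0.28 for Bub1, 0.013 to 0.11 for Ccnb1, -0.17 to -0.044 for Cdc20, -0.39 to -0.18 for Cdkn2d, 0.0034 to 0.35 for Mki67, 0.18 to 0.40 for Nusap1, 0.00066 to 0.31 for Rb1, 0.12 to 0.25 for Rbl1, 0.046 to 0.19 for Rrm1, 0.040 to 0.15 for Tpx2 and -0.24 to -0.13 for Ung. Among these genes, with both libraries of a number left out, signs turned for Ccnb2 (0.052) and Pcna (0.041) without number 1. Without number 2 they turned for Kif20a (-0.014), Pcna (0.011) and Rrm2 (0.010). Other members turned too, since 15, 19 and 10 of 28 G1 and S genes were positive without numbers 1, 2 and 3. For the G2 and M genes 16, 11 and 13 of 19 were then positive. Over all genes tested the shares were 50.6%, 52.0% and 52.35%. The cause was not tested. The precision for a single member is limited by a median SE of 0.093 on the log2 scale.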
